A study of Apis mellifera with 2 samples.

Results

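Dscam, Tspan6, uzip, Reck and EphR are 5 honey bee genes for proteins of the cell surface, followed here in the RNA of hemocytes, the blood cells of insects. They were chosen by name among the surface genes that carry a symbol in RefSeq, and all their coding sequences were found by protein identifier, 78 of the 23471 in the files, for 5 of 9935 genes. RNA of hemocytes of Apis mellifera carnica was sequenced in 2 libraries. For the adult one, closed brood was incubated at 34 °C and bees under 1 day old were taken at intervals of 24 h as they emerged. For the larval one, worker larvae aged 8 days (the fifth instar) were bled directly after removal from the hive. Each preparation used the cells of 320 µL of hemolymph, and the labels do not say from how many insects it was pooled. The series set out to map the surface molecules of these cells.

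The proteins have distinct tasks at the membrane. Dscam is an immunoglobulin-superfamily receptor whose pre-mRNA holds arrays of alternative exons, so that a single gene gives very many receptor forms, and in Drosophila it serves both neurons that recognise themselves and blood cells that take up bacteria. Eph receptors are tyrosine kinases that bind ephrins on neighbouring cells and pass on repulsion or adhesion. Tetraspanins such as Tspan6 cross the membrane repeatedly and gather other membrane proteins into patches. In Drosophila, unzipped (uzip) is a membrane-tethered adhesion protein known from axon guidance. Reck is known in mammals as an anchored inhibitor of matrix metalloproteinases, the enzymes that cut extracellular matrix.

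Estimated counts came to 16880784 for adult and 17657463 for larval hemocytes. PPO, the prophenoloxidase of hemocytes and the single hemocyte marker with a symbol among the 7 listed, stood at 14041 CPM in adult hemocytes, against 28019 CPM in larval hemocytes. CPM is the count per 1000000 after TMM scaling, which lines up the bulk of genes between libraries. Each stage has a single library, so no replicate error or p-value can be given, and differences are between these libraries and not shown to hold for the stages. Intervals are exact 95% intervals for counting error only. A difference met the size rule when it was at least 4-fold, its interval bound nearest to 1 was too, and the higher library had 10 CPM or more. Of 8798 genes compared, 3.14% met it as higher in adult and 2.72% as higher in larval hemocytes. Of the genes that met it, 53.6% were higher in adult hemocytes, against 72.1% with plain totals, 60% with upper-quartile scaling and 79.8% with the authors' TPM.

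With TMM scaling, Reck and EphR were higher in larval hemocytes by more than 4-fold. Dscam and Tspan6 differed by less than 1.5 times and uzip was 1.22-fold higher in adult hemocytes. Reck and EphR are thus 2 of 5 members past the size rule with TMM on the larval side, with a background of 2.72%. None was on the adult side. With plain totals neither Reck nor EphR met the rule. Among the 315 genes compared that carry a symbol, from which the members were chosen, 21 met it on each side. The genes were chosen with these differences known, so the share is not read further. In whole hemocyte pellets, fewer cells of a type and less RNA per cell cannot be told apart.

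**Figure D1:**
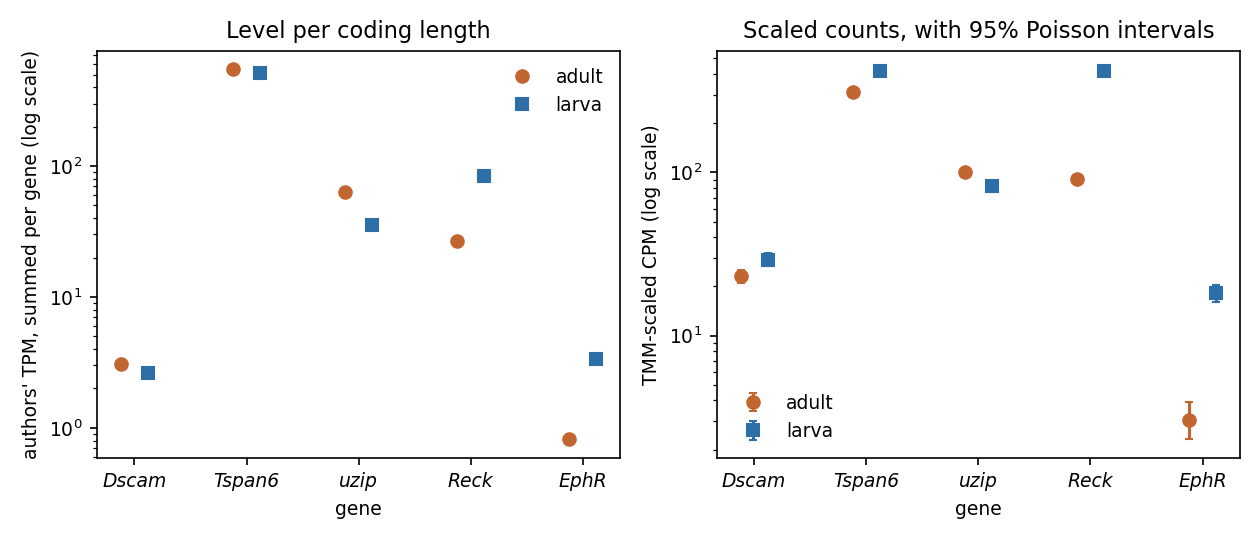
Level of the 5 genes in the adult (circles) and larval (squares) library, as the authors' TPM summed per gene (left) and as TMM-scaled CPM with exact 95% Poisson intervals (right), both on log axes. Tspan6 is highest in both libraries on the TPM scale, Reck and EphR are higher in larval hemocytes in both panels, and Dscam and Tspan6 change order between the panels.

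Per coding length, Tspan6 was by far the most abundant of the 5 transcripts. It stood at 548 TPM in the adult library (counting interval 535 to 563) and at 515 TPM in the larval library (503 to 528), rank 308 and rank 315 of 9935 genes. The others lay far below it, and their order differed between libraries. In the adult library uzip followed at 63.7 TPM (60.9 to 66.6), then Reck at 26.97 (25.7 to 28.3), Dscam at 3.06 (2.78 to 3.36) and EphR at 0.818 (0.621 to 1.06). In the larval library Reck came second at 84.2 TPM (82.2 to 86.3), ahead of uzip at 35.7 (33.8 to 37.7), and EphR at 3.38 (3.00 to 3.79) lay above Dscam at 2.64 (2.41 to 2.90). No counting intervals of neighbours in either order overlapped.

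Dscam transcripts were scarce and similar in amount in both libraries, at rank 7427 (adult) and 7015 (larva) of 9935 genes by TPM. The gene had 439 estimated counts in adult hemocytes, against 457 in larval hemocytes, or 23.0 and 29.2 CPM. Adult over larva, its log2 fold was -0.34 (-0.53 to -0.15) with TMM, 0.0069 with plain totals and 0.21 in the authors' TPM. The median of all genes moved in the same way, at 0.02, 0.37 and 0.55, and relative to that median Dscam stood at -0.36, -0.36 and -0.33. Its direction therefore depended on the scaling. A scaling factor moves all genes of a library alike, so TMM and plain totals give the same place relative to the median by construction. In TPM, which the authors made from the same counts, Dscam also lay a little to the larval side of the typical gene.

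Dscam had more annotated coding sequences than any other gene in the files, 51, against a median of 1 per gene. They run from 5841 to 6219 bases, predicted proteins of 1946 to 2072 residues, and forms of a gene share coding sequence, so kallisto divided reads among them: all Dscam counts lay in estimates that are not whole numbers at a tolerance of 0.001. An estimate of 0 for a single form is therefore not read as absence of that form. Of the 51, 18 had an estimate above 0.001 counts in adult and 16 in larval hemocytes, 10 of them in both, while 27 had none in either. At 10 or more counts, 12 were found in adult and 13 in larval hemocytes, and 5 in both. Among 61 genes with 10 or more forms and 50 to 1000 counts in each library, Dscam included, a median of 40% of forms were above 0.001 counts in each library. For Dscam it was 35.3% in the adult library, so such counts are not read as particular to Dscam. No background was computed for the overlap between libraries.

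The same form led in both libraries. NP_001014991.1, the shortest, held 23.97% of the gene's TPM in the adult library, with 102 estimated counts, and 33.0% in the larval library, with 147. The exact binomial intervals of its share of the counts were 19.4 to 27.5% and 27.9 to 36.7% and did not overlap. A second form, XP_026295728.1 of 1991 residues, held 8.79% of adult and 11.9% of larval TPM. XP_026295692.1 of 2049 residues held 8.24% and 6.53%, and both forms had overlapping intervals. These 3 were the only forms with 30 or more counts in both libraries.

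Other Dscam forms were estimated in one library and scarcely in the other. XP_026295712.1 (2011 residues) held 10.2% of adult TPM with 45.1 estimated counts and stood at 0 counts in the larval library. XP_026295693.1 (2048 residues) held 9.49% of adult TPM against 0.0433% of larval TPM. XP_026295726.1 (1992 residues) held 7.64% in the adult library and stood at 0 in the larval one. Some forms of equal length went opposite ways. XP_026295713.1 and XP_026295714.1, as long as XP_026295712.1, had 0 adult counts and 12.5 and 12.7 larval counts. XP_026295694.1, as long as XP_026295693.1, had 12.4 adult and 22.3 larval counts. These forms are therefore not read as restricted to a library, and pooling of forms of equal length is given below. At a floor of 3 counts, the one-sided limit, a count of 0 allows up to 0.683% of the adult and 0.656% of the larval counts of the gene, if the division of reads is taken as given. The upper ends of the exact binomial interval, which is two-sided, are 0.837% and 0.804%.

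Forms estimated mainly in the larval library held shares of similar size. XP_026295729.1 (1991 residues) held 1.06% of adult and 7.40% of larval TPM, and XP_026295722.1 (2009 residues) 1.18% and 7.35%. XP_026295702.1 (2017 residues) and XP_026295719.1 (2010 residues) stood at 0 counts in the adult library and held 6.18% and 5.45% of larval TPM. On the adult side, XP_026295703.1, also of 2017 residues, held 5.87% of adult and 2.06% of larval TPM. The other 40 forms, each below 5% in both libraries, held 23.5% of adult and 20.1% of larval TPM together. The effective number of forms, the number of equally abundant forms that would give the same evenness, was 9.21 in adult hemocytes, against 6.59 in larval hemocytes.

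**Figure D2:**
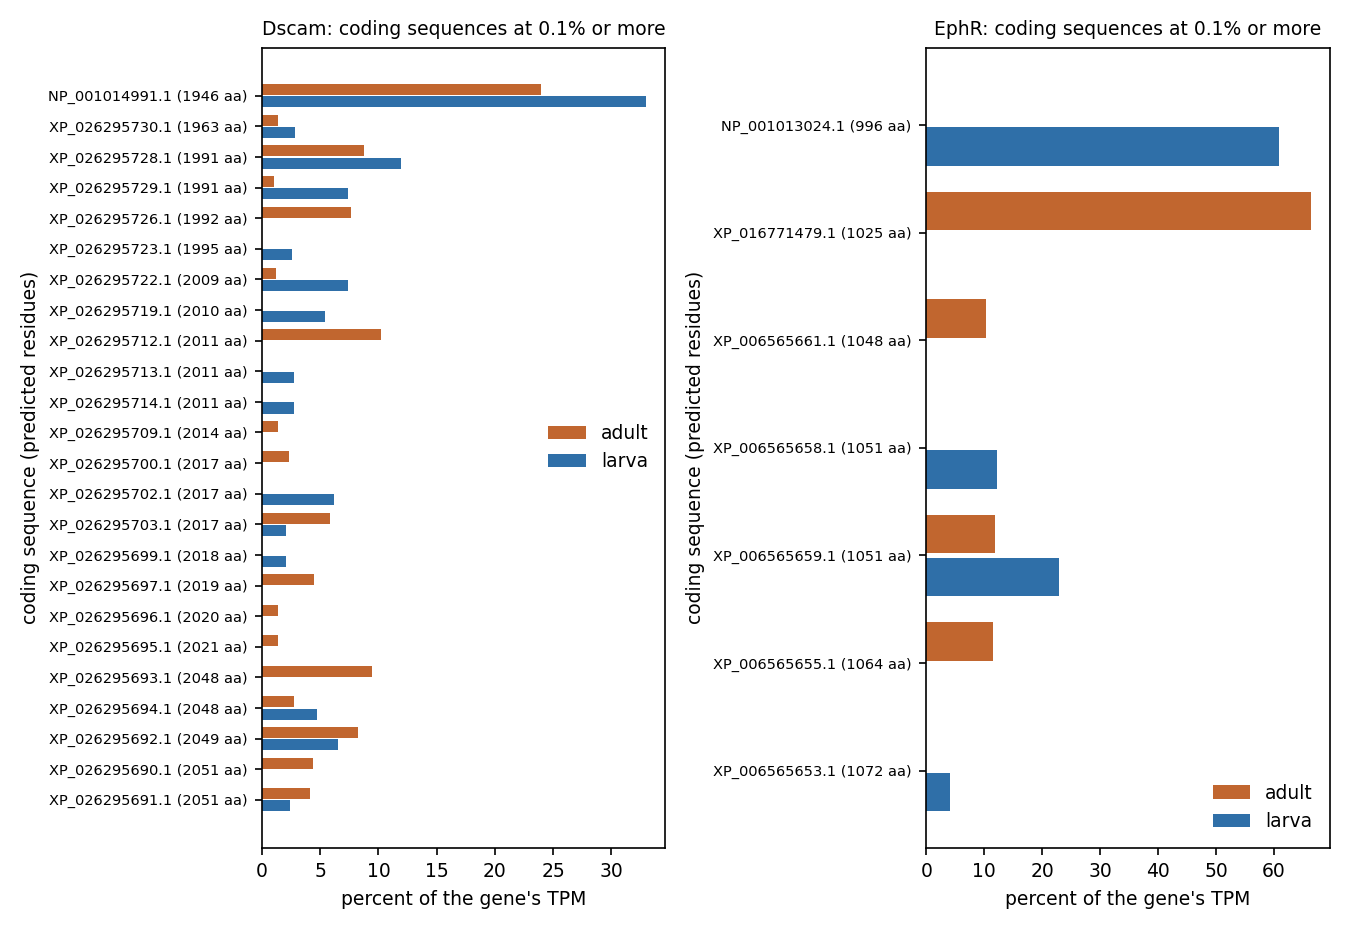
Share of the gene's TPM held by each coding sequence of Dscam (left) and EphR (right) in the adult (upper bar) and larval (lower bar) library, ordered by predicted protein length, for coding sequences at 0.1% or more in either library. In Dscam, NP_001014991.1 leads in both libraries; in EphR, XP_016771479.1 leads in the adult and NP_001013024.1 in the larval library.

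Grouped by length, Dscam forms differed most between the libraries in a long class. Coding lengths fall into 6 classes separated by gaps of more than 30 bases, a grouping made after the values were seen. The 7 forms of 6147 to 6168 bases held 29.6% of Dscam counts in the adult library (25.4 to 34.1) and 14.2% in the larval library (11.2 to 17.8). The 27 forms of 6030 to 6066 bases held 28.5% (24.3 to 32.9) and 28.9% (24.8 to 33.3), with intervals that overlap. The 7 forms of 5976 to 5988 bases held 17.3% (13.9 to 21.2) and 21.9% (18.2 to 26.0). The single form of 5892 bases held 1.37% of adult and 2.84% of larval counts. All 8 forms of the longest class, 6204 to 6219 bases, stood at 0 counts in both libraries.

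**Figure D3:**
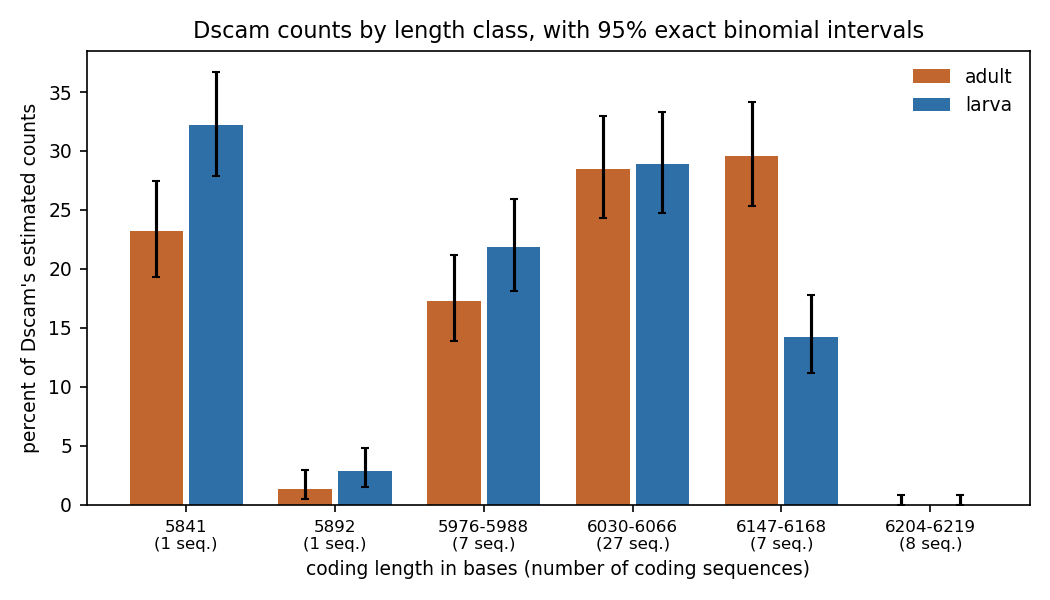
Percent of Dscam's estimated counts in each of 6 coding-length classes, adult (left bar of each pair) and larval (right bar) library, with exact 95% binomial intervals for counting error. The class of 6147 to 6168 bases is higher in adult hemocytes (29.6% against 14.2%), the shortest form is higher in larval hemocytes, and the longest class is at 0 in both.

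The mix of forms was summarised by a share distance, the share of a gene's TPM that would have to pass between coding sequences to turn the mix of one library into that of the other. It is 0 for equal mixes and 1 for mixes with nothing in common. Dscam had a distance of 0.498. Over all 3302 genes with 2 or more coding sequences and at least 100 counts in each library, the median was 0.0470, and 12.5% reached 0.25, the size called a shift here. Genes with many forms and few counts have wider distances: the median was 0.195 among 180 genes with 10 or more forms and 100 or more counts. Among 61 with 10 or more forms and 50 to 1000 counts it was 0.393, and 14 of these, Dscam included, were at or above Dscam's value. When forms of equal length were pooled the Dscam distance was 0.362, and with the 6 length classes it was 0.152, below the size of a shift.

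**Figure D4:**
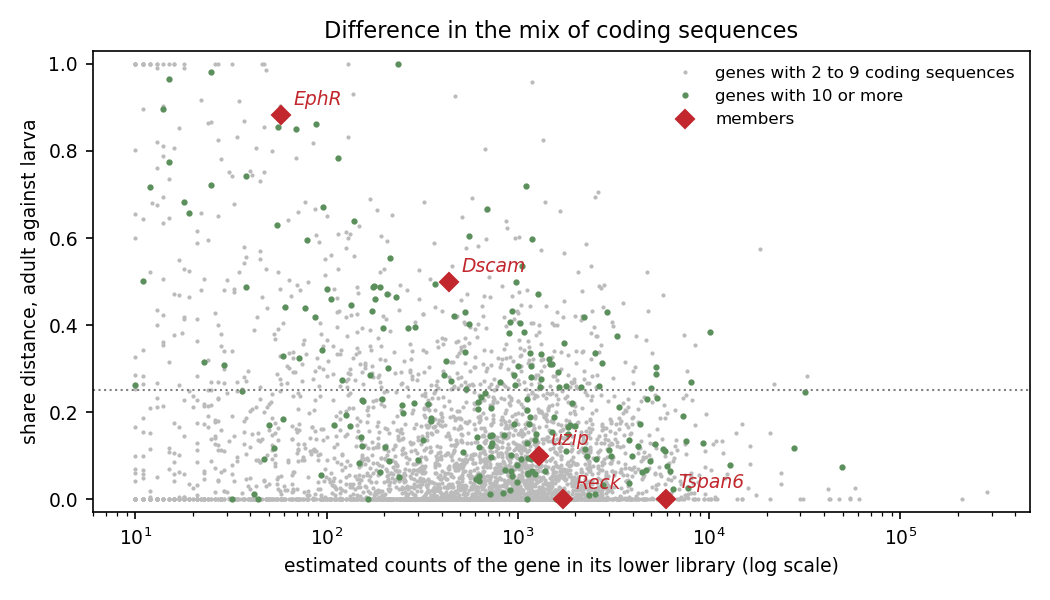
Share distance between the adult and larval library (0 equal mixes, 1 nothing in common) against the gene's estimated counts in its lower library (log axis), for genes with fewer than 10 (small grey points) and 10 or more (green) coding sequences that have at least 10 counts. The dotted line marks 0.25; EphR (0.882) and Dscam (0.498) lie above it, uzip (0.101), Tspan6 and Reck below it, and distances spread more widely at low counts.

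EphR, the Eph receptor gene, was the scarcest member in the adult library, at rank 8169 of 9935 genes by TPM, and lay at rank 6805 in the larval library. It had 58 estimated counts in the adult library (3.04 CPM, interval 2.31 to 3.94) and 285 in the larval library (18.2 CPM, 16.2 to 20.5). It was thus 5.94-fold higher in larval hemocytes (4.50 to 8.08), a log2 fold of -2.57. With plain totals it was 4.67-fold higher (3.53 to 6.34), where the lower bound misses the size rule, and in the authors' TPM the difference was 4.13-fold. The adult counts are few, and the shares of single forms below rest on them.

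The leading EphR coding sequence differed between the libraries, as it did in 32 of the 61 genes (52.5%) with 10 or more forms and 50 to 1000 counts in each library, EphR among them. With at least 100 counts in each library, which leaves EphR out, it differed in 54 of the 180 genes with 10 or more forms and in 11.2% of the 3302 genes with 2 or more. In the adult library XP_016771479.1, with 1025 residues, led with 38.0 of the 58 counts and 66.3% of TPM (interval of its count share 51.9 to 77.5%). In the larval library it had 0.0941 counts. There NP_001013024.1, the shortest form with 996 residues, led with 169 counts and 60.9% of TPM (53.3 to 65.1%), and it stood at 0 counts in the adult library. A count of 0 allows up to 5.17% of the adult counts of this gene at the floor of 3 counts, and up to 6.16% by the exact binomial interval. Set against this floor of 3 counts in the lower library, the estimate of NP_001013024.1 was 68.6-fold higher in larval hemocytes. That of XP_016771479.1 was 10.4-fold higher in adult hemocytes. Both values leave out the counting error of the higher library and take the division of reads as given, so they are not lower bounds.

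The remaining EphR reads went to longer forms. XP_006565659.1 (1051 residues) had 6.97 counts in adult hemocytes, against 67.6 in larval hemocytes, 11.8% and 22.9% of TPM. XP_006565658.1, also of 1051 residues, stood at 0 in the adult library and held 12.2% of TPM in the larval library. XP_006565655.1 (1064 residues) and XP_006565661.1 (1048 residues) had 6.92 and 6.05 counts in the adult library and 0 in the larval one. Of the 19 EphR coding sequences, 10 had no counts in either library, and none had 10 or more in both. In the adult library 31.6% of them were above 0.001 counts, against a median of 40% in the 61 genes with 50 to 1000 counts. No background was computed for the overlap between libraries. The share distance was 0.882, and 2 of the 61 genes with 10 or more forms and 50 to 1000 counts, EphR included, were at or above it. The 58 adult counts of EphR lie near the lower end of that range, and distances are wider at low counts. No background of closer depth was computed, so this rank is not read further.

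Tspan6 differed little between the libraries. It had 5935 counts in adult hemocytes (311.5 CPM), against 6527 in larval hemocytes (417 CPM), a log2 fold of -0.42 (-0.47 to -0.37) with TMM. Its log2 fold was -0.072 with plain totals and 0.090 in the authors' TPM, so its direction also depended on the scaling. Relative to the median of all genes it stood at -0.44 with TMM and plain totals, alike by construction, and at -0.46 in TPM. Its 2 coding sequences both have 699 bases (232 residues), and NP_001011592.1 held 99.7% of adult and 99.6% of larval TPM. The other, XP_006562266.1, had 18.7 and 27.6 counts.

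For uzip, the adult library was higher under TMM, plain totals, DESeq2 size factors, upper-quartile scaling and TPM. It had 1917 counts in adult hemocytes (100.6 CPM), against 1287 in larval hemocytes (82.3 CPM), 1.22-fold higher in adult hemocytes (1.14 to 1.31). The log2 fold was 0.29 with TMM, 0.64 with plain totals and 0.84 in TPM. This fold was small beside the size rule.

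The uzip forms did not differ by the same amount. XP_026295137.1, with 486 residues, led in both libraries with 62.3% of adult and 72.4% of larval TPM, and its count shares had intervals of 59.6 to 64.0% and 69.4 to 74.4%. Its own level was 62.2 CPM in adult hemocytes, against 59.2 CPM in larval hemocytes, a log2 fold of 0.07 (-0.05 to 0.20). NP_001035357.1, with 495 residues, stood at 33.1 CPM in adult hemocytes, against 19.9 CPM in larval hemocytes, a log2 fold of 0.73 (0.54 to 0.93). XP_026295136.1, with 494 residues, stood at 5.35 and 3.20 CPM, a log2 fold of 0.74 (0.24 to 1.26). The shortest form was thus close to equal on the TMM scale. Both longer forms were higher in adult hemocytes beyond counting error, if the division of reads among the forms is taken as given. In the authors' TPM all 3 forms were higher in adult hemocytes, the shortest at 39.7 against 25.8 TPM and NP_001035357.1 at 20.7 against 8.48 TPM. Shares within a gene do not depend on the library scaling. The uzip share distance was 0.101, under the size of a shift.

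Reck, the metalloproteinase inhibitor, had the second-widest difference of the 5 and many more counts than EphR. It had 1731 counts in the adult library (90.9 CPM, 86.6 to 95.2) and 6546 in the larval library (418 CPM, 408 to 429). It was 4.60-fold higher in larval hemocytes (4.37 to 4.86), a log2 fold of -2.20. With plain totals it was 3.61-fold and in the authors' TPM 3.12-fold higher in larval hemocytes, so the size rule was not met under those scalings. Relative to the median of all genes the log2 fold was -2.22 with TMM and plain totals, alike by construction, and -2.19 in TPM.

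A single coding sequence accounted for Reck. XP_006565648.2, of 2838 bases and 945 residues, held over 99.9% of TPM in each library. XP_006565649.2 and NP_001242961.1, both of 2691 bases and 896 residues, had 0.00168 counts each in the adult and 0.00708 each in the larval library, the same values as each other. These forms are 49 codons shorter than the leading one. The mix of Reck forms was the same in both libraries, with a share distance of 2.4e-07.

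**Figure D5:**
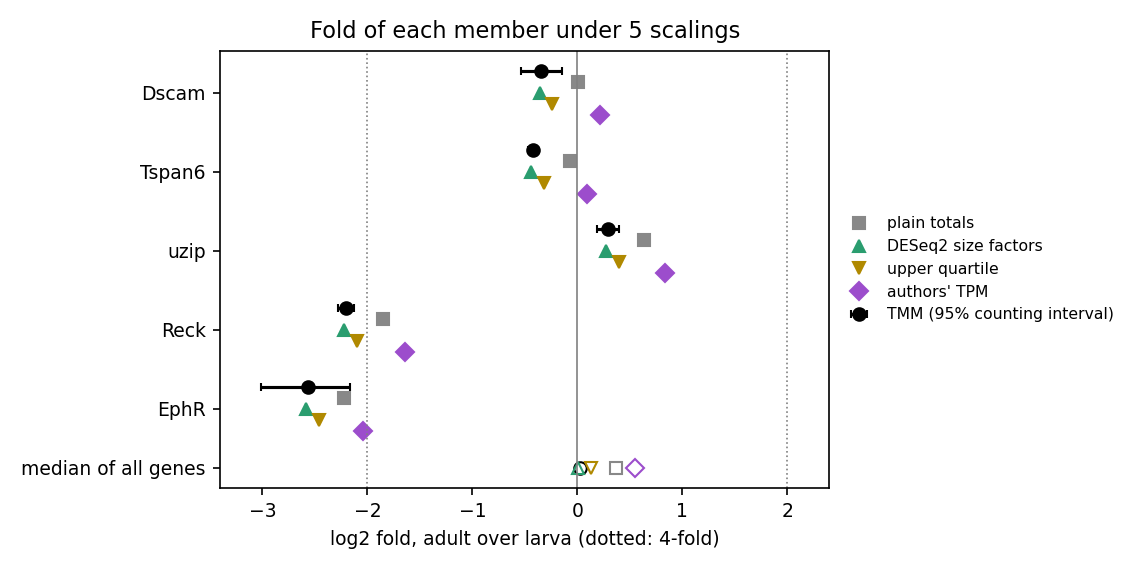
Log2 fold of adult over larva for each gene under 5 scalings (filled symbols), with the exact 95% counting interval for TMM, and the median of all genes under each scaling (open symbols); dotted lines mark 4-fold. Reck and EphR lie far to the larval side under each scaling shown, at -2.20 and -2.57 with TMM, uzip lies to the adult side, and Dscam and Tspan6 cross 0.

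Annotated gene spans overlap in 2 cases. Counts are per coding sequence, so this could bear on them only where coding sequences themselves overlap, which was not examined. The sources used here do not say if strand was used in counting. LOC410961 overlaps uzip and had 405 counts in adult hemocytes, against 217 in larval hemocytes. LOC727008 and LOC410549 overlap Reck. LOC727008 stood at 174 CPM in adult hemocytes, against 255 CPM in larval hemocytes, a log2 fold of -0.55, and LOC410549 at 7.66 and 10.2 CPM, -0.42. Whether any of these reads were shared was not tested. No protein-coding gene overlaps Dscam, Tspan6 or EphR. Of non-coding genes, the long non-coding RNA gene LOC102655496 overlaps uzip and the microRNA gene Mir3790 overlaps EphR. Reck and EphR lie on the same chromosome sequence, per the target identifiers.

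The wider list of surface and adhesion genes, taken by symbol, held 11 genes, the 5 above and 6 others, all compared. Past the size rule, 1 of the 11 was higher in adult and 2 in larval hemocytes (background 3.14% and 2.72%). The 2 on the larval side were Reck and EphR, members chosen with their differences known. Beyond counting error, 4 were higher in adult and 5 in larval hemocytes, where 41.8% and 40.9% of all genes were. The median log2 fold of the list was 0.23, against 0.02 over all genes compared. Of the 315 genes compared that carry a symbol, 21 met the size rule on each side. Beyond counting error 105 of these 315 were higher in adult and 144 in larval hemocytes, and their median log2 fold was -0.21. Without the 5 members, 1 of the 6 others was past the size rule in adult and 0 in larval hemocytes. Beyond counting error 3 of these 6 were higher in adult and 1 in larval hemocytes, and their median log2 fold was 1.01. Lists for the metalloproteinase partners of Reck (symbols starting Mmp, Timp or Adam) and for ephrins matched no gene with a symbol.

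Among the 6 others, NLG-4, a neuroligin, the adhesion protein of synapses, met the size rule on the adult side with 572 counts in adult and 32 in larval hemocytes, a log2 fold of 3.86. The toll family receptor 18-w stood at 108 CPM in adult hemocytes, against 35.3 CPM in larval hemocytes (log2 fold 1.62). NLG-5 had 55 adult and 10 larval counts (2.13). Nrx-1, a neurexin and partner of neuroligins, was on the larval side at 3.31 CPM in adult hemocytes, against 14.4 CPM in larval hemocytes (-2.12). NLG-3 at 0.23 and InR-2, an insulin receptor gene, at 0.40 did not leave counting error. Abscam, an immunoglobulin adhesion gene named after its values were seen, had 8 counts in adult hemocytes, against 0 in larval hemocytes.

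By scaled CPM in the libraries, the nearest genes with a symbol, among 314 candidates, were CPF2, a cuticle protein gene, and Sergef for Dscam. For Tspan6 they were Trxr-1 (thioredoxin reductase) and STT3B, a subunit of the enzyme that attaches sugars to secreted proteins, and for uzip Dl and H. For Reck they were Cat, catalase, with 94.7 adult and 362 larval CPM, and 1 of 2 genes with the symbol Fabp (fatty acid binding), with 131 and 416. For EphR they were Obp13, an odorant-binding protein gene (3.46 and 22.3 CPM), and the neurexin gene Nrx-1. Their distances ran from 0.0871 for CPF2 to 0.526 for Fabp in log2 CPM. Likeness over 2 libraries is a description of level and fold alone.

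Markers of other tissues differed between the same libraries. The 7 fat body genes summed to 190 CPM in adult hemocytes, against 6888 CPM in larval hemocytes, 6 of them higher in larval and 1 in adult hemocytes beyond counting error, and none was at 0. The adult-side gene was Vg, the yolk precursor, which made up 119.7 CPM of the adult sum and stood at 0.320 CPM in larval hemocytes. The 4 silk gland genes summed to 10.1 and 53.7 CPM, with 3 higher in larval hemocytes beyond counting error. The 6 neuronal genes summed to 1143 CPM in adult hemocytes, against 271 CPM in larval hemocytes, with 4 higher in adult and 1 in larval hemocytes beyond counting error, and brp at 26 and 0 counts. Syt1, synaptotagmin, alone gave 1094 of the adult and 244 of the larval CPM. Of these 6, 4 are neuroligin and neurexin genes that also stand in the surface list. The 7 muscle genes summed to 29.3 and 43.1 CPM, with 1 higher in adult and 4 in larval hemocytes. Of the 2 oenocyte genes, Cyp4g11 was higher in adult hemocytes, at 84.6 against 1.73 CPM, and FAR1 in larval hemocytes, at 4.99 CPM in adult and 7.99 CPM in larval hemocytes, both beyond counting error. The part of these tissues in the values of Reck, EphR and the other members was not tested.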

How the data were processed

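Polyadenylated RNA of 1 adult and 1 larval hemocyte library was sequenced as read pairs of 150 bases. The authors deposited estimated counts per RefSeq coding sequence, made with kallisto, as the submitters' processing notes say (version, index and build: not given in the sources used here). TPM, scaled by the authors to coding length and depth, stand beside the estimated counts per the file headers. The coding sequences hold no untranslated regions, and reads that match several are divided among them, an uncertainty the intervals do not cover.

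All 23471 coding sequences were matched by protein identifier to 9935 genes of a RefSeq table of Amel_HAv3.1, used for names and neighbours. Counts were summed per gene, rounded, and scaled with TMM (edgeR 4.0.16, R 4.3.3; factors 1.13 adult, 0.886 larva) over the 8798 genes with at least 10 counts. Log2 folds use a prior of 0.5 counts. Intervals are Clopper-Pearson on the split of counts between libraries, exact Poisson for levels and exact binomial for shares. They cover counting error only, and PCR copies of a molecule are counted as if independent. A fold against 0 counts uses a floor of 3 counts in that library. Shares are of TPM. The fold, its interval and the size rule were tested on simulated Poisson counts. The share distance was tested on a simulated mix of few forms with many counts. No simulation divided reads among similar forms, so the distance was not tested at the depth and number of forms of Dscam or EphR. Python 3.11.15 (numpy 2.4.6, scipy 1.17.1, pandas 2.3.3) and matplotlib 3.10.9 did the rest. Alternatives were DESeq2 1.42.0 size factors, upper-quartile scaling, plain totals, the authors' TPM, other priors, count filters and fold sizes, and pooled forms.

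Named were the 5 genes, their coding sequences at 5% or more of TPM in either library, the list genes and the 2 nearest genes with a symbol. Coding sequences of Tspan6 and Reck below 5% are also named as minor forms, and some of Dscam for their length. Genes, lists and rules were chosen with earlier results of these data known. Sequences of the proteins were not used here.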

Additional observations from a re-analysis of the deposited data

How the results depend on the processing

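No replicate could be left out. No paired analysis was possible because each group has 1 sample. Of 114 alternative values for 23 results, 86 stayed within a set margin. The margin was the counting interval for folds and leading shares, and 1.5 times for counts of genes. For share distances it came from the interval of the leading form, and for the list median from that of its middle gene. Other priors, unrounded sums and count filters could hardly move a value, so the 86 is not read as a measure of stability. Neither Reck nor EphR, the members past the size rule, changed sign. Dscam and Tspan6 were higher in larva beyond counting error with TMM. Dscam changed sign with the authors' TPM and with plain totals, where its counting interval spanned equal levels. Tspan6 changed sign with the authors' TPM only. With plain totals the log2 fold was 0.0069 for Dscam, -0.072 for Tspan6, 0.64 for uzip and -1.85 for Reck. With the authors' TPM it was 0.21 for Dscam, 0.090 for Tspan6, 0.84 for uzip, -1.64 for Reck and -2.05 for EphR. With upper-quartile scaling it was -0.32 for Tspan6, 0.40 for uzip and -2.10 for Reck. All these follow the shift of the median of all genes. From the coding sequence with the most counts alone it was -0.79 for Dscam, 0.088 for uzip and -6.08 for EphR. The last is a value at the floor of 3 adult counts, since that form has 0. Genes past the size rule, higher in adult and in larva, numbered 276 and 239 as reported, 879 and 931 at 2-fold, 120 and 86 at 8-fold, and 560 and 142 with the authors' TPM, which have no interval. The share distance of Dscam was 0.362 with forms of equal length pooled. In length classes, a choice made after seeing the data, it was 0.152 for Dscam, 0.663 for EphR and 0 for uzip, whose forms make 1 class. Without forms under 10 counts the leading EphR form held 84.9% in the adult library. The median of the surface and adhesion list was 0.58 with plain totals and 0.78 with TPM. Depth limits EphR above all, with 58 adult counts.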

Other observations

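A protein-coding gene next to Reck without overlapping it, LOC726997, had a similar difference, noticed after the values were seen. It had 1826 counts in adult hemocytes, against 6037 in larval hemocytes, 95.8 and 386 CPM, a log2 fold of -2.01 (-2.09 to -1.93). The gene on the other side, LOC727026, stood at 12.1 CPM in adult hemocytes, against 14.1 CPM in larval hemocytes, a log2 fold of -0.22 (-0.49 to 0.05). The files pair neither with a product name.

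The genes beside Tspan6 differed from it and from each other. LOC409783 stood at 324 CPM in adult hemocytes, against 12.5 CPM in larval hemocytes, a log2 fold of 4.70 (4.49 to 4.91), and met the size rule, while LOC725690 stood at 2.20 and 9.27 CPM (-2.06). Next to EphR, LOC113219244 had a log2 fold of -0.25 and LOC727128 of -1.04, both far from the -2.57 of EphR. These neighbours were named after their values were seen.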
